A study of Oreochromis mossambicus with 12 samples.

Results

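The suppressors of cytokine signalling (SOCS) are intracellular proteins that switch off signals from cytokine receptors. Described here are 3 of their genes, cish, socs1 and socs3, in cultured head-kidney leukocytes of the tilapia Oreochromis mossambicus. They were taken by symbol, as all rows of the expression table annotated cish, socs1 or socs3. That gave 7 transcripts for the 3 genes, of 58070 transcripts and 28921 symbols in all. The head kidney is the blood-forming organ of bony fish, and its leukocytes were kept in primary culture before treatment. Co-treated cells received heat-killed Streptococcus agalactiae at 1 bacterium per cell (multiplicity of infection, MOI) together with 1000 μM sodium nitrite. Bacteria-treated cells received the heat-killed S. agalactiae alone at an MOI of 1, nitrite-treated cells the 1000 μM sodium nitrite alone, and control cells phosphate-buffered saline (PBS). All cells were collected after 12 h, and each of the 4 groups had 3 RNA sequencing libraries. The bacteria could not multiply, since they had been killed by heat, and all groups held mixed leukocytes. The labels do not state how many fish or cultures stand behind a group. The p-values therefore rest on differences among the libraries as sequenced, and those differences could be technical.

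Many cytokine receptors carry no enzyme of their own and rely on Janus kinases (JAK), which phosphorylate STAT transcription factors, and STAT factors in turn switch on target genes. SOCS genes are among those targets, so their proteins close a negative feedback loop. Each SOCS protein has an SH2 domain, which binds phosphotyrosine, and a SOCS box, which recruits a ubiquitin ligase. In mammals SOCS1 inhibits JAK kinases directly and restrains interferon signalling. Mammalian SOCS3 acts on receptors that use the gp130 chain, on the G-CSF receptor and on the leptin receptor. CISH is a STAT5 target in mammals and binds receptors such as those of erythropoietin and growth hormone. In mammalian macrophages SOCS1 and SOCS3 are induced by bacterial products as well as by cytokines.

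The SOCS genes fell into separate patterns. With heat-killed bacteria, socs1 and socs3 rose, whether nitrite was present or not. As deposited, cish was lower in bacteria than in PBS, and in co-treatment than in nitrite, at each replicate number. The same held for 42.5% of all tested genes. For bacteria against PBS the change of cish did not pass in the main fit (adjusted p = 0.115, limma), and other fits are given below. Group means of socs1 differed 7.56-fold between bacteria and PBS and those of socs3 differed 4.74-fold. The mean of cish was 12.6 ± 3.51 FPKM with bacteria and 26.1 ± 12.99 FPKM with PBS (SD, n = 3 each). No change of the 3 genes passed the test for nitrite in either setting. In these bulk samples of mixed leukocytes, fewer cells of a type and less RNA per cell cannot be told apart. Summed neutrophil markers were higher in all libraries with bacteria than in any without, and summed B cell, progenitor, thrombocyte and eosinophil granule markers lower. The neutrophil sums were close, at 858 FPKM in the lowest library with bacteria and 850 FPKM in the highest without. Thrombocyte sums were close too, at 80.9 FPKM in the highest library with bacteria and 85.1 FPKM in the lowest without. Of single tested genes, 13.8% lay wholly above PBS with bacteria alone and 34.6% wholly below. No such share is given here for sums, or for all libraries with bacteria against all without. Within these lists csf3r, a neutrophil marker, and fli1, a thrombocyte marker, went against their sums for bacteria against PBS (-0.24 and 0.39). Values are given after the pathway, and the part of these cell types in the SOCS changes was not tested. Values are FPKM, that is sequenced fragments scaled to transcript length and to all fragments of the library, with the transcripts of a symbol summed.

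Within-group correlations across genes, which are not independent replicates, ran from 0.905 upwards in the co-treatment, bacteria and nitrite groups. PBS replicate 1 stood apart, with r of 0.809 and 0.849 to the other PBS libraries. Its ribosomal protein genes made up 4.77% of the FPKM sum, against 8.66% to 16.8% in the other 11 libraries. It was also the shallowest by the steps between low values, about 1.40 times below the deepest. Libraries with the same replicate number deviated together from their group means in all 18 pairs (r of 0.416 to 0.919), and the numbers were taken to pair the libraries. A fit blocked on that number was therefore also run, and where it changes a call described here this is stated.

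socs3, the most abundant SOCS gene in 11 of the 12 libraries, measured 202, 198 and 243 FPKM in co-treatment replicates 1, 2 and 3. It measured 197, 216 and 243 FPKM with bacteria. Nitrite libraries had 14.3, 49.9 and 95.9 FPKM and PBS libraries 19.1, 41.9 and 77.4 FPKM. Relative to their level, both groups with bacteria were tight and both groups without were wide. The groups with bacteria were high and those without low, and no library with bacteria overlapped one without.

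Against PBS the change of socs3 with bacteria was 2.43 ± 0.60 on the log2(FPKM + 1) scale (SE; adjusted p = 0.0100, limma with Benjamini-Hochberg adjustment over 12423 genes). Of all tested genes 98.1% had a lower change, and relative to the median gene the change of socs3 was 2.72. In this comparison socs1 and socs3 were the members called higher, 2 of 3, where 10.7% of all tested genes were called higher and 13.8% lay wholly above PBS. Over all genes the split of calls depended on the scaling, with 1330 higher and 3264 lower as deposited and 2094 higher (16.9%) and 1727 lower (14%) after median-ratio scaling. Co-treatment against nitrite gave 2.34 ± 0.60 (adjusted p = 0.0126, limma). It shares no library with the first comparison. Both rest on a pooled spread, however, and same-number libraries deviated together, so they are not independent. Co-treatment against PBS gave 2.40 ± 0.60 (adjusted p = 0.00976). Co-treatment against PBS uses the same PBS libraries as bacteria against PBS, so these values are set side by side only. The share of genes called higher was 10.6% in co-treatment against nitrite and 11.4% in co-treatment against PBS, and in each of them socs1 and socs3 were called. Genes whose libraries all lay above those of the other group, as socs1 and socs3 did, made up 15.7% and 14.4% of tested genes in these comparisons.

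The spread of socs3 differed between groups. Its highest library was 1.23 times the lowest with co-treatment and 1.23 times with bacteria, but 6.70 times with nitrite and 4.05 times with PBS. By replicate number, bacteria exceeded PBS 10.3-fold, 5.16-fold and 3.13-fold for numbers 1, 2 and 3, and co-treatment exceeded nitrite 14.1-fold, 3.97-fold and 2.54-fold. Since the level with bacteria was nearly constant, these folds mostly follow the level without bacteria, which is their denominator. All 6 differences were positive, as for 16.6% of tested genes as deposited and 27.4% once scaled by median ratios. Without PBS replicate 1 the log2 change against PBS was 1.92 (adjusted p = 0.0317), and without nitrite replicate 1 the change of co-treatment against nitrite was 1.61 (adjusted p = 0.0397).

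**Figure D1:**
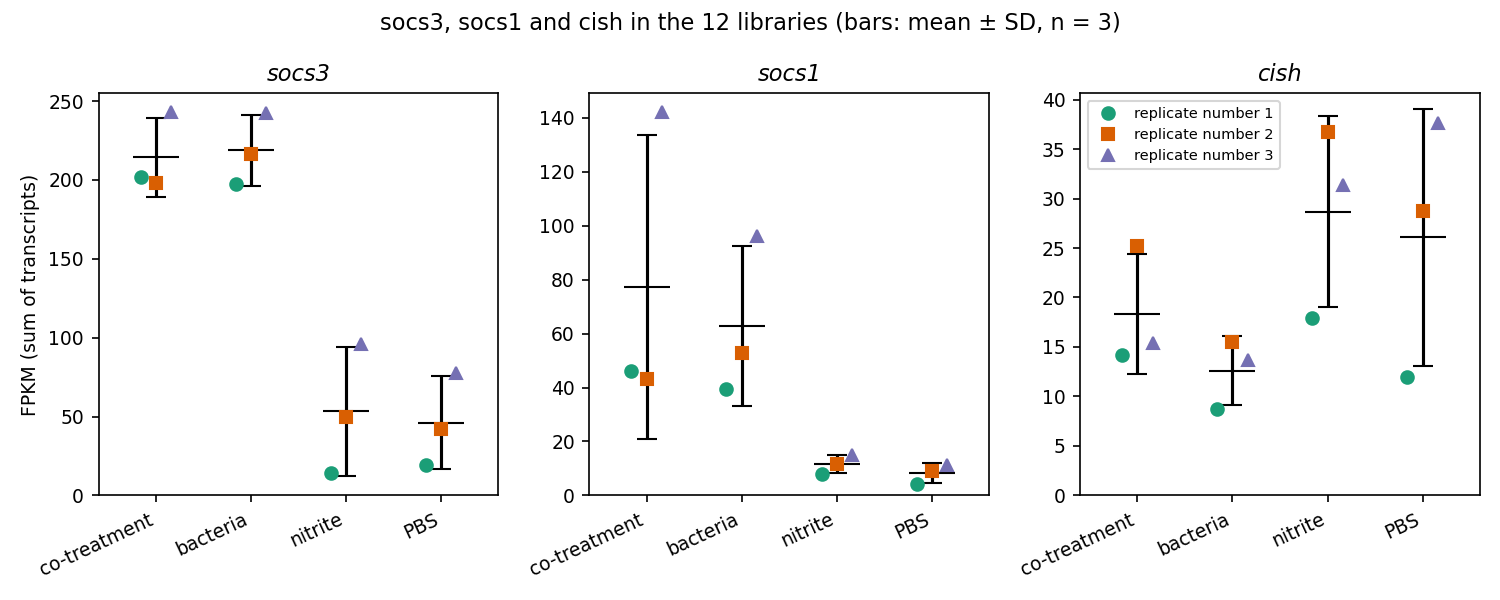
FPKM of socs3, socs1 and cish (transcripts summed; linear axes from 0) in the 4 groups; each point is a library, its colour and shape the replicate number, and bars are the mean ± SD of 3 libraries. socs3 and socs1 lie higher in every library with bacteria than in any without, whereas cish overlaps between bacteria and PBS and between co-treatment and nitrite.

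socs1 measured 46.3, 43.3 and 142 FPKM in the co-treatment libraries and 39.4, 52.7 and 96.3 FPKM in the bacteria libraries. It measured 8.11, 11.7 and 15.1 FPKM with nitrite and 4.39, 9.10 and 11.4 FPKM with PBS. Again no library with bacteria overlapped one without. Here replicate number 3 was the highest of every group, and the highest co-treatment library was 3.28 times the lowest.

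The change of socs1 was 2.76 ± 0.50 for bacteria against PBS (adjusted p = 0.00180) and 2.45 ± 0.50 for co-treatment against nitrite (adjusted p = 0.00366). For co-treatment against PBS it was 2.93 ± 0.50 (adjusted p = 0.00119). By replicate number socs1 rose 8.98-fold, 5.79-fold and 8.42-fold with bacteria over PBS, and 5.71-fold, 3.71-fold and 9.44-fold with co-treatment over nitrite. The mean of socs1 lay above 90.5% of tested genes with bacteria and above 45.6% with PBS, while socs3 lay above 97.2% and 87.5%. Without PBS replicate 1 the change of socs1 against PBS was 2.41 (adjusted p = 0.00636). Calls of socs1 and socs3 in these 3 comparisons held under all 25 alternatives run.

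cish measured 14.2, 25.3 and 15.4 FPKM with co-treatment and 8.71, 15.5 and 13.7 FPKM with bacteria. It measured 17.9, 36.7 and 31.3 FPKM with nitrite and 12.0, 28.7 and 37.6 FPKM with PBS. Groups overlapped in the comparisons made here, and replicate number 1 was the lowest of each group. Within a replicate number, cish as deposited was lower in 6 of 6 pairs that compare bacteria with PBS or co-treatment with nitrite, as were 42.5% of all tested genes. After median-ratio scaling, where 27.7% of genes were lower in all 6, cish was lower in 5 of 6, with a ratio of 0.995 for bacteria to PBS and 1.06 for co-treatment to nitrite at number 1. The ratio of bacteria to PBS was 0.725, 0.539 and 0.364 for numbers 1, 2 and 3, and that of co-treatment to nitrite was 0.793, 0.687 and 0.492, both as deposited. Co-treatment over PBS gave 1.18, 0.879 and 0.410.

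The log2 change of cish for bacteria against PBS was -0.89 ± 0.41 and did not pass (adjusted p = 0.115). With the replicate block its error was 0.23 and it passed (adjusted p = 0.00988), in a fit that called 38.6% of all genes lower, against 26.3% without the block and 14% after median-ratio scaling without it. It also passed without PBS replicate 1, at -1.35 (adjusted p = 0.0144). As deposited, the median gene changed by -0.29 in this comparison, and cish lay 0.60 below that median. After median-ratio scaling, which puts the median gene at 0.01, cish was at -0.55 and did not pass, without the block (adjusted p = 0.290) or with it (adjusted p = 0.0881). For co-treatment against nitrite cish was at -0.61 ± 0.41 (adjusted p = 0.281, and 0.0512 with the block), and for co-treatment against PBS at -0.40 ± 0.41 (adjusted p = 0.482). Leaving out PBS replicate 1 put that last value at -0.86 (adjusted p = 0.0747). Median-ratio scaling put it at -0.053 (adjusted p = 0.929).

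**Figure D2:**
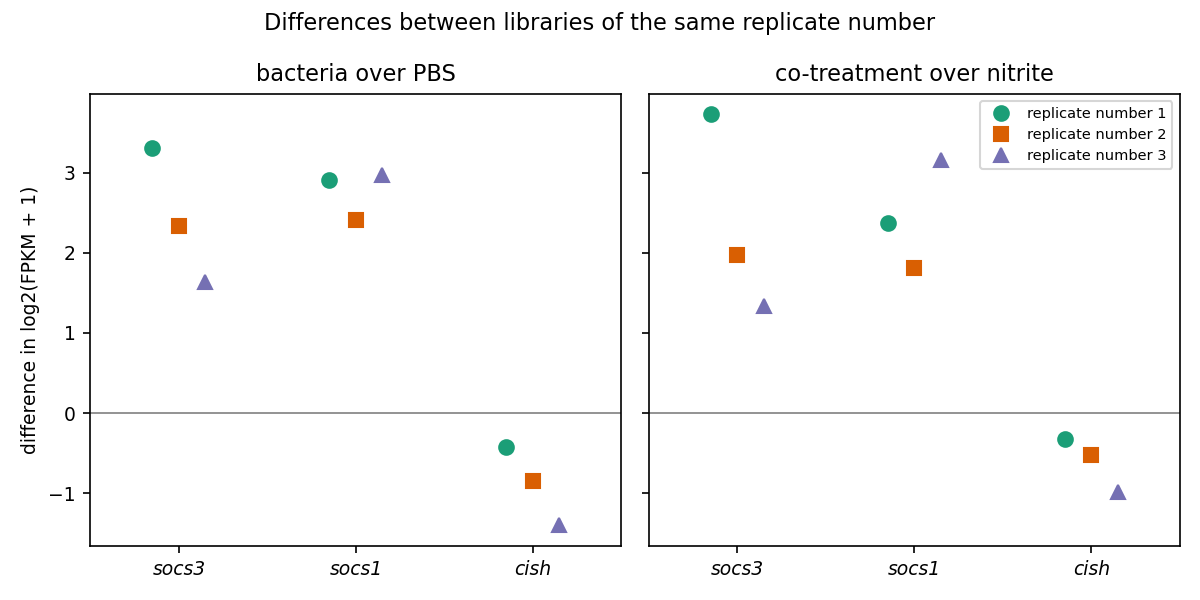
Differences in log2(FPKM + 1) between libraries of the same replicate number for socs3, socs1 and cish, bacteria over PBS on the left and co-treatment over nitrite on the right; each point is a pair of libraries and the grey line is no difference. As deposited, all 6 differences are above 0 for socs3 and for socs1 and below 0 for cish; after median-ratio scaling 1 of the 6 for cish is above 0.

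Ratios between members within a library do not depend on any scaling by 1 factor per library, such as median-ratio scaling, although quantile normalization can change them. The ratio of socs1 to cish was 3.25, 1.72 and 9.23 with co-treatment and 4.52, 3.40 and 7.05 with bacteria, against 0.452, 0.318 and 0.481 with nitrite and 0.366, 0.317 and 0.304 with PBS. Hence socs1 exceeded cish in all libraries with bacteria and was below it in all libraries without. For socs3 to cish the ratio ran from 7.85 to 15.8 with co-treatment and from 14.0 to 22.7 with bacteria, against 0.798 to 3.06 with nitrite and 1.46 to 2.06 with PBS. The ranges of the ratio of socs3 to socs1 overlapped between groups, at 1.71 to 4.57 with co-treatment, 2.52 to 5.01 with bacteria, 1.76 to 6.37 with nitrite and 4.35 to 6.76 with PBS. These ratios were chosen with the values known and carry no test.

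With nitrite alone all 3 members overlapped PBS. Within replicate numbers socs1 was 1.85-fold, 1.28-fold and 1.32-fold higher with nitrite than with PBS, and its interval with the replicate block was -0.06 to 1.03 (adjusted p = 0.675, limma). Without PBS replicate 1 the change of socs1 was 0.13. The log2 changes against PBS were 0.05 for socs3, with a 95% confidence interval of -1.28 to 1.38, 0.48 for socs1 (-0.61 to 1.58) and 0.21 for cish (-0.70 to 1.12), each with an adjusted p of 1 in limma's test. None of the 12423 tested genes was called in this comparison (0%), with 74 genes at an unadjusted p under 0.05, and 489 with the replicate block, where again 0 were called. Nitrite added to bacteria gave -0.03 for socs3 (-1.36 to 1.30), 0.17 for socs1 (-0.92 to 1.26) and 0.49 for cish (-0.42 to 1.41), of which none passed (adjusted p = 1.00 each). In that comparison 0.00805% of genes were called, which is 1 gene, LOC100692258. All these intervals rest on a spread pooled over the 4 groups, and socs3 varied less in both groups with bacteria than in those without. cish was higher with co-treatment than with bacteria at all 3 numbers, 1.63-fold, 1.63-fold and 1.13-fold, and 98.0% of tested genes had a lower change. With the block its interval was -0.02 to 1.01. How many of all genes were higher with nitrite at all 3 numbers is not given here, so these same-sign pairs have no background. Neither socs1 against PBS nor cish against bacteria passed.

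Whether the response to bacteria differed with nitrite was tested by the interaction of both agents. It was -0.08 ± 0.85 for socs3, -0.32 ± 0.70 for socs1 and 0.28 ± 0.59 for cish in log2 units, and none passed (adjusted p = 1.00 each, limma). The same LOC100692258 was the 1 gene called (0.00805%). The intervals, -1.96 to 1.80 for socs3, -1.86 to 1.23 for socs1 and -1.01 to 1.57 for cish, hold differences in either direction. With the replicate block the intervals were narrower, at -1.41 to 1.25 for socs3, -1.09 to 0.46 for socs1 and -0.45 to 1.01 for cish. They still hold differences in either direction, and again none passed.

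**Figure D3:**
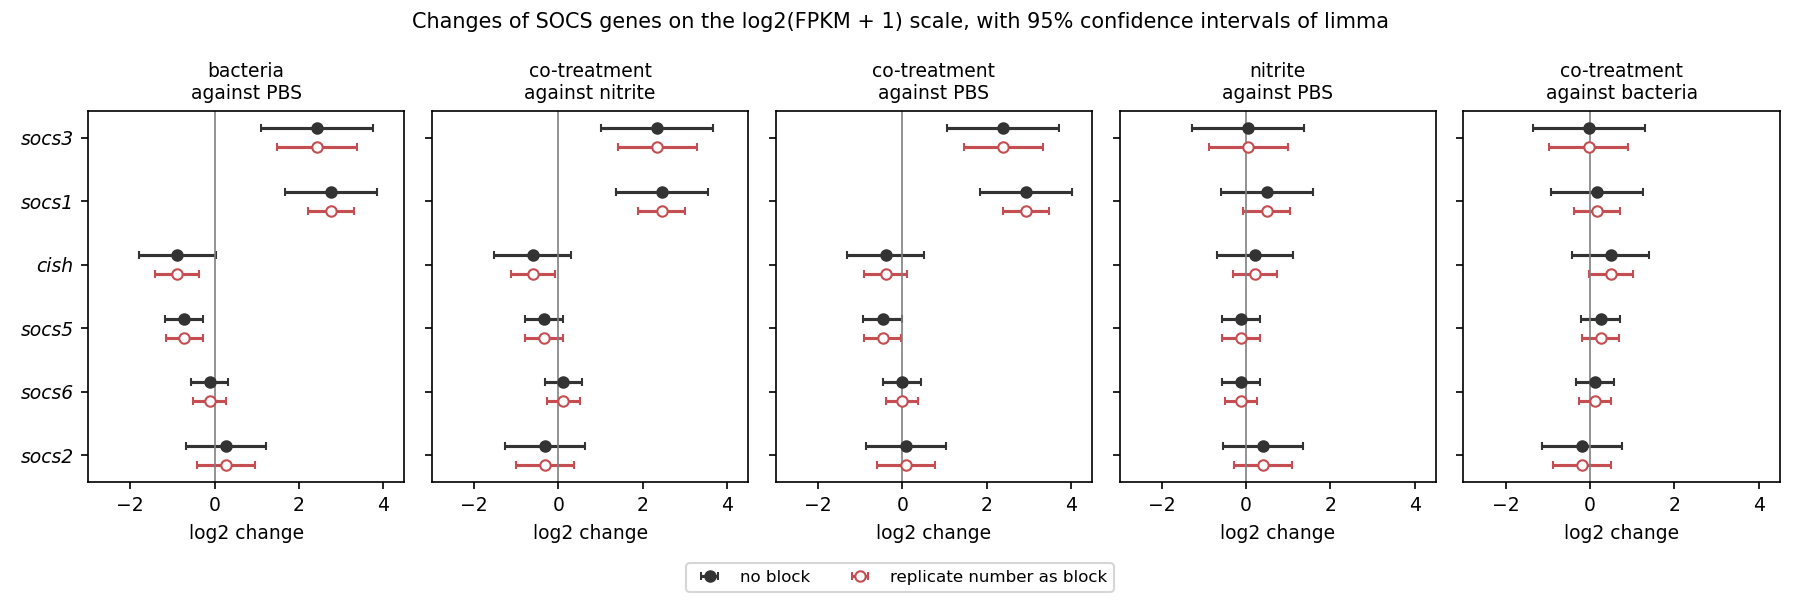
Log2 changes of 6 SOCS genes in 5 comparisons, with 95% confidence intervals, from the fit without a block (filled) and with the replicate number as a block (open). socs3 and socs1 lie above 0 in the 3 comparisons that add bacteria, while the intervals for nitrite, alone or added to bacteria, include 0.

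The transcript rows were uneven. For socs3 one row held 99.7% of the summed FPKM, and its second row was listed above 0 in 2 libraries, reaching 5.22 FPKM in nitrite replicate 3. For socs1 all FPKM came from 1 of 2 rows, and the other was listed at 0 in all 12 libraries. cish had 3 rows, of which one held 92.6% and the others 3.58% and 3.83%. The member values therefore rest mostly on 1 transcript each, for cish less so in some libraries. The main cish row held 7.15 of 8.71 FPKM in bacteria replicate 1 and 14.86 of 17.94 FPKM in nitrite replicate 1. Further copies of these genes may stand under LOC identifiers, which carry 18784 of the 28921 symbols and were not used here, and how reads shared between copies were counted is not given in the sources used here.

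Among the other SOCS genes 5 of 17 listed symbols matched, and 3 passed the filter on low values. socs4 and socs7 did not reach it, with at most 0.27 and 0.07 FPKM in any library. socs5, which in mammals restrains interleukin-4 and EGF receptor signalling, had 7.94, 10.7 and 10.1 FPKM with co-treatment and 7.05, 8.32 and 8.19 FPKM with bacteria. It had 13.3, 14.1 and 10.01 FPKM with nitrite and 17.9, 12.6 and 11.0 FPKM with PBS. All bacteria libraries of socs5 lay below all PBS libraries, as for 34.6% of tested genes. The gene fell by 0.72 ± 0.21 against PBS (adjusted p = 0.0190). That call was lost after median-ratio scaling (-0.39, adjusted p = 0.174) and quantile normalization (-0.44, adjusted p = 0.167). It was lost as well when bacteria replicate 1 was left out (-0.65, adjusted p = 0.0710). For co-treatment against nitrite socs5 was at -0.34 ± 0.21 (adjusted p = 0.219). socs6, a regulator of receptor tyrosine kinases in mammals, was at -0.12 ± 0.20 with bacteria against PBS, and socs2, an inhibitor of growth hormone signalling, at 0.27 ± 0.43, and neither passed. Without PBS replicate 1 both turned in sign, to 0.12 for socs6 and -0.24 for socs2, and socs6 was also above 0 under both scalings (0.17 and 0.27). The socs2 means were 1.58, 1.89, 2.29 and 1.76 FPKM with co-treatment, bacteria, nitrite and PBS.

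FPKM are scaled to transcript length, and on that basis levels are set side by side across genes. What computed the FPKM and how reads shared between copies were counted is not given, so the order is a description. In all 6 libraries with bacteria the order was socs3, socs1, cish, socs5, socs6, socs2. Without bacteria the order varied, and cish was above socs1 in all 6 libraries. The summed FPKM of the 6 genes was 277 to 418 with co-treatment and 259 to 367 with bacteria, against 59.8 to 160 with nitrite and 60.9 to 145 with PBS. Of that sum socs1 made up 15.2% to 34.0% with co-treatment and 15.2% to 26.3% with bacteria, against 9.42% to 13.6% with nitrite and 7.20% to 9.26% with PBS. The share of cish was 3.69% to 8.89% with co-treatment and 3.36% to 5.16% with bacteria, against 19.6% to 30.8% with nitrite and 19.7% to 29.3% with PBS. Since the sum itself was higher with bacteria, mostly as socs3 and socs1, this share does not measure a fall of cish. The FPKM of cish overlapped between groups.

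**Figure D4:**
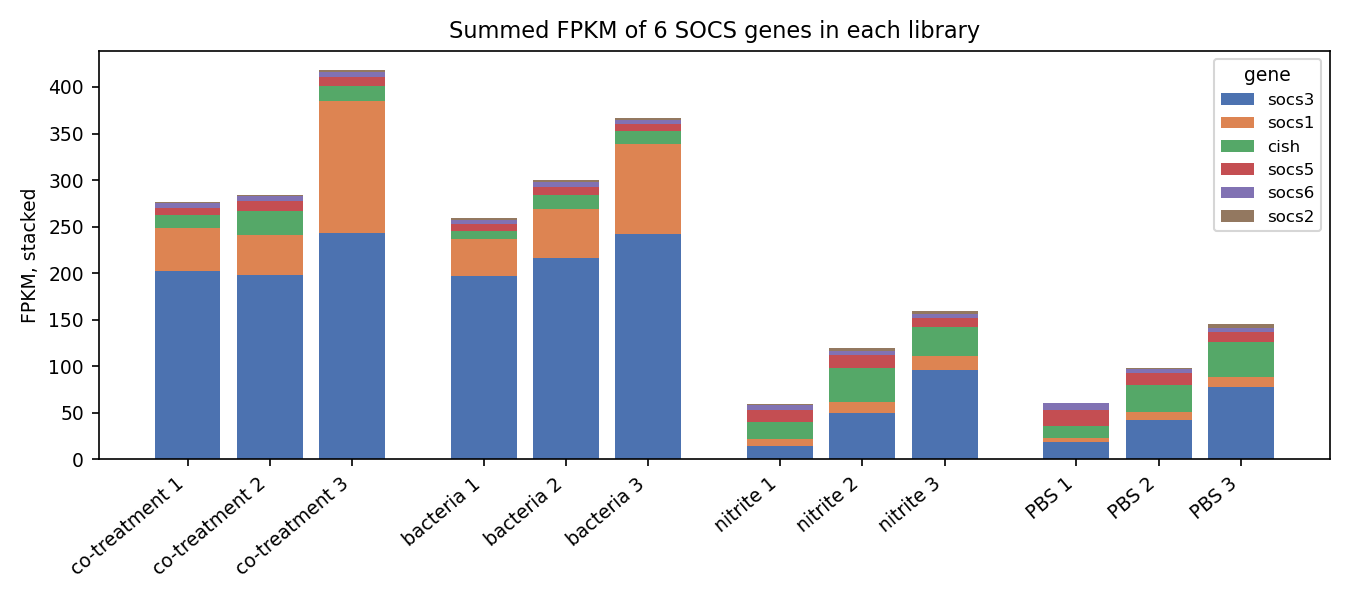
Stacked FPKM of 6 SOCS genes in each of the 12 libraries, grouped by treatment and numbered by replicate. All libraries with bacteria reach at least 259 FPKM, mostly socs3 and socs1, and all libraries without stay at or below 160 FPKM, with a larger share of cish in that smaller sum.

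For the rest of the JAK-STAT pathway, lists held 173 further symbols, of which 48 matched and 41 passed the filter on low values. Of 5 tested cytokine genes 3 rose with bacteria against PBS, beside 10.7% of all genes. However, il12b and il10 averaged under 1 FPKM in both groups without bacteria and passed the filter only through the libraries with bacteria, so this count is a description. il12b, a subunit shared by interleukins 12 and 23, had 26.9, 18.7 and 37.1 FPKM with co-treatment and 45.0, 26.9 and 38.0 with bacteria, against 0.40, 0.14 and 0.54 with nitrite and 0.33, 0.17 and 0.45 with PBS. ebi3, a partner subunit in interleukins 27 and 35 of mammals, rose by 4.13 ± 0.23 (adjusted p = 8.60e-07). lepa, a leptin gene, rose by 4.02 ± 0.31 (adjusted p = 9.38e-06), with 23.5, 33.5 and 35.7 FPKM with bacteria against 0.42, 0.66 and 2.11 FPKM with PBS. il10, an anti-inflammatory cytokine that signals through STAT3, was at 0.65 ± 0.29 (adjusted p = 0.105) and rose with the replicate block (adjusted p = 0.0308), in a fit that called 14.8% of all genes higher, and without bacteria replicate 1 (1.02, adjusted p = 0.00816). It also passed under both scalings, median-ratio (0.82, adjusted p = 0.0441) and quantile (0.92, adjusted p = 0.0218), and on its most abundant transcript alone (1.08, adjusted p = 0.0255). epo was at 0.24 ± 0.29.

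Of 9 receptor chains 1 rose and 5 fell with bacteria against PBS, beside 10.7% and 26.3% of all genes, with a median of -0.58. il6st, which encodes gp130, had 20.0, 21.1 and 20.5 FPKM with co-treatment and 20.6, 21.8 and 19.1 FPKM with bacteria. Nitrite libraries had 29.6, 38.0 and 34.9 FPKM of il6st and PBS libraries 47.7, 33.8 and 38.9 FPKM. Every bacteria library of il6st was thus below every PBS library, as for 34.6% of tested genes. il6st fell by 0.92 ± 0.16 (adjusted p = 0.00147). The leptin receptor gene lepr fell by 2.09 ± 0.30 (adjusted p = 0.000466) while the leptin gene lepa rose, and the prolactin receptor gene prlr fell by 2.98 ± 0.25 (adjusted p = 1.45e-05). The prlr gene averaged under 1 FPKM in both groups with bacteria and passed the filter through the libraries without. il15ra, the interleukin 15 receptor alpha chain, rose by 2.99 ± 0.32 (adjusted p = 8.11e-05). csf3r, the G-CSF receptor, was at -0.24 ± 0.22 and did not pass. mpl (-1.76) and crlf3 (-0.58) also fell, and their calls were lost after median-ratio scaling (adjusted p = 0.0589 and 0.294). On its most abundant transcript alone crlf3 was at 0.88, the opposite sign, and did not pass (adjusted p = 0.548). The mpl call was also lost on leaving out PBS replicate 1 or 2 or bacteria replicate 1 or 3 (adjusted p of 0.0586 to 0.0850). That of crlf3 was lost on leaving out PBS replicate 2 or 3 or bacteria replicate 1 or 2 (adjusted p of 0.0532 to 0.0888).

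Of 4 JAK and STAT genes 1 rose with bacteria against PBS, beside 10.7% of all genes. jak1, a kinase gene, rose by 0.62 ± 0.17 (adjusted p = 0.0180), a call lost after quantile normalization (adjusted p = 0.127). It also failed when PBS replicate 2 (0.51, adjusted p = 0.0633) or bacteria replicate 1 was left out (0.54, adjusted p = 0.0754). stat3, through which gp130 signals, was at -0.06 ± 0.21, tyk2 at -0.08 ± 0.22 and stat4 at -0.50 ± 0.32, none of which passed.

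Inhibitors outside the SOCS family had 2 of 9 rising and 1 falling, beside 10.7% and 26.3% of all genes. ptpn6, the SHP-1 phosphatase, had 540, 441 and 484 FPKM with co-treatment and 577, 490 and 532 with bacteria, against 158, 157 and 266 with nitrite and 139, 157 and 257 with PBS. It rose by 1.58 ± 0.27 (adjusted p = 0.00140). sh2b3, an adaptor that restrains cytokine receptors, rose by 1.38 ± 0.29 (adjusted p = 0.00471), but not on its most abundant transcript alone (1.25, adjusted p = 0.194). pias4 fell by 0.54 ± 0.17, a call lost after median-ratio scaling (adjusted p = 0.345) and on leaving out PBS replicate 1 or any bacteria library (adjusted p of 0.0539 to 0.0968). ptpn11 was at -0.51 ± 0.20 and fell with the replicate block (adjusted p = 0.0353) and without PBS replicate 2 (adjusted p = 0.0230). ptpn1, ptpn2, pias1, cbl and cblb did not pass, at 0.20, 0.13, -0.05, 0.48 and -0.21, except that ptpn1 rose after median-ratio scaling (0.53, adjusted p = 0.0405).

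Of the 5 genes listed for the ubiquitin ligase that the SOCS box recruits 0 rose and 2 fell, where 26.3% of all genes fell. cul5, the cullin scaffold, fell by 0.67 ± 0.17 (adjusted p = 0.0104) and arih2 by 0.36 ± 0.13 (adjusted p = 0.0478), and after median-ratio scaling neither passed (adjusted p = 0.0651 and 0.945). The arih2 call was also lost in 11 of 12 fits that left out 1 library. eloc and elob, the elongins, were at -0.19 ± 0.27 and -0.14 ± 0.20. rnf7, the RING subunit, was at -0.18 ± 0.41 and at -0.82 without PBS replicate 1, where it passed (adjusted p = 0.00104). Genes described in mammals as activated by STAT factors had 5 of 9 rising and 1 falling, beside 10.7% and 26.3% of all genes, with a median of 0.93 against -0.29 over all genes. bcl3 (1.98 ± 0.24), batf (1.93 ± 0.18), pim3 (1.29 ± 0.27) and bcl2l1 (1.25 ± 0.17) rose, irf9 also rose (0.58 ± 0.15), and cebpd fell by 1.31 ± 0.38. hif1a was at 0.52 and did not pass, but rose after median-ratio scaling (0.87, adjusted p = 0.0360). The irf9 call was lost without bacteria replicate 2 (adjusted p = 0.0516), and that of cebpd without PBS replicate 2, bacteria replicate 1 or bacteria replicate 2 (adjusted p of 0.0517 to 0.0753). The cebpd call was also lost after median-ratio scaling (-1.03, adjusted p = 0.0591) and quantile normalization (-0.94, adjusted p = 0.107). Several of these are also targets of NF-kB, and the lists do not tell the pathways apart.

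Over the 7 lists 22 of 44 tested genes were called with bacteria against PBS, beside 37% of all tested genes. Among the 44, il12b and il10 passed the filter only through libraries with bacteria, and prlr only through those without. The counts over the 7 lists are therefore a description. Of the 22 called genes 12 kept the call under all 25 alternatives, namely il12b, ebi3, lepa, il6st, il15ra, prlr, lepr, ptpn6, bcl3, pim3, bcl2l1 and batf. In co-treatment against nitrite 21 were called, beside 33.9% of all genes. Of these 21, 15 kept the call under every alternative, among them jak1, il10, irf9 and cebpd. The 6 that lost it were il6st, mpl, crlf3, sh2b3, cul5 and arih2. With nitrite against PBS 0 of 44 were called, beside 0% of all genes.

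**Figure D5:**
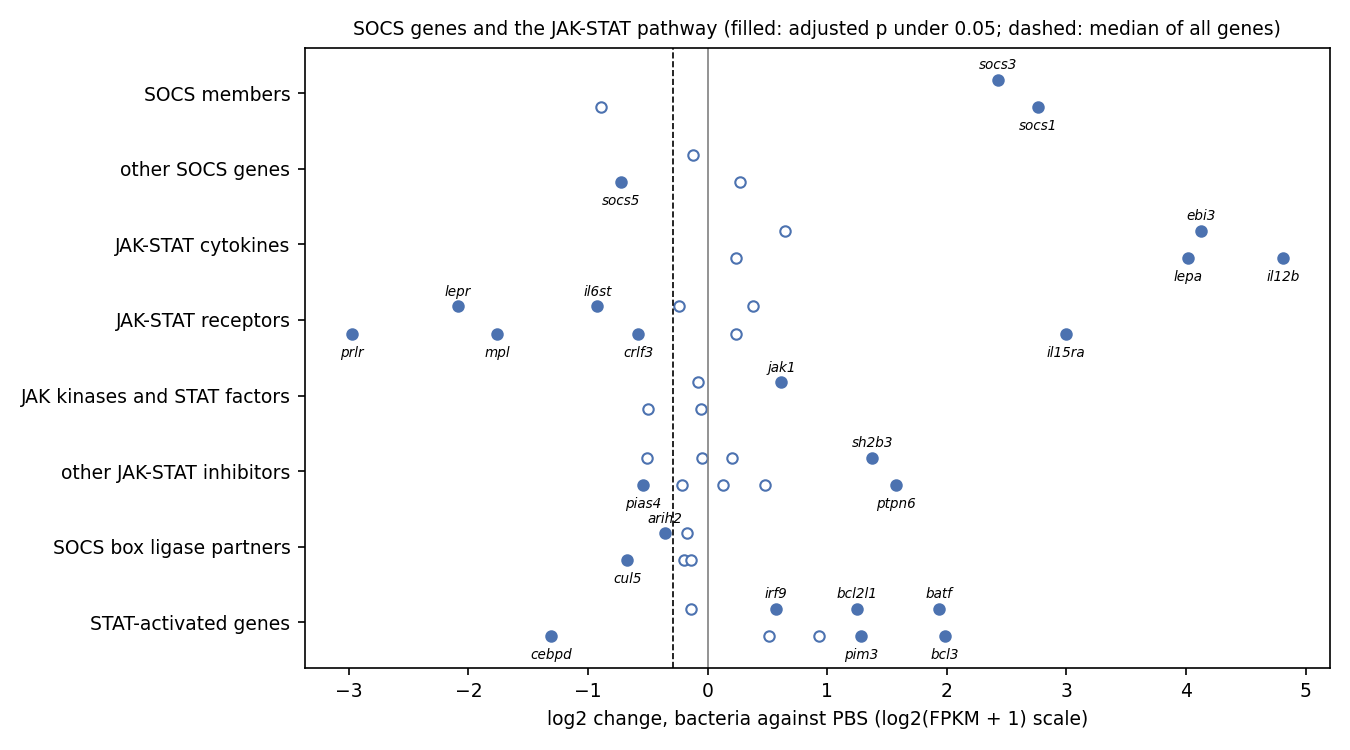
Log2 changes for bacteria against PBS of the 3 members and of the tested genes of 7 pathway lists; filled points have an adjusted p under 0.05 in limma's test, the dashed line is the median of all genes (-0.29) and the grey line is no change. Points are spread vertically within a list only to separate them. The 3 called cytokine genes lie at the far right, most called receptor genes on the left, and socs3 and socs1 between 2 and 3.

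Genes with the pattern most like each member were ranked by Pearson's r over the 12 libraries, as a description. For socs3 they were cdk2ap1 (0.989), sphk1 (0.988), cyp1b1 (0.977), pdcd6 (0.976) and nrp1 (0.976). For socs1 they were tbx2 (0.987), xaf1 (0.978), zbtb46 (0.977), slc22a31 (0.975) and cadm4 (0.974), several of them at low FPKM. For cish they were wdr3 (0.953), spry1 (0.949), me1 (0.929), pkig (0.929) and pabpn1 (0.929). Between members r was 0.909 for socs1 and socs3, -0.395 for cish and socs1 and -0.250 for cish and socs3. Libraries share groups and replicate numbers, so these r are no evidence of shared control.

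Summed marker levels of several cell types also differed between libraries with and without bacteria. The leukocyte genes lcp1 and spi1, 2 of 8 listed that matched, summed to 1590 to 1631 FPKM with co-treatment and 1502 to 1592 with bacteria, against 1100 to 1427 with nitrite and 1165 to 1512 with PBS. Their log2 changes for bacteria against PBS had opposite signs, 0.61 for lcp1 and -0.35 for spi1, and neither passed without the block. With the block lcp1 passed (adjusted p = 0.0245, limma) and spi1 did not. 5 of 8 kidney tubule markers matched, and together they stayed at or below 0.06 FPKM. Of 10 endothelial and stromal markers 9 matched. They summed to 51.9 to 99.9 FPKM with co-treatment and 60.0 to 94.7 with bacteria. Nitrite libraries had 61.2 to 106 FPKM of them and PBS libraries 51.6 to 85.95 FPKM. These overlapping sums join opposite signs. With bacteria against PBS pdgfrb (-2.44), stab1 (-2.55) and tagln (-1.60) fell in the main fit, while flt1 (4.95) rose. The 4 neutrophil markers that matched, of 9, summed to 917 to 1373 FPKM with co-treatment and 858 to 1473 with bacteria, against 480 to 850 with nitrite and 661 to 811 with PBS. Among them ncf1 and ncf4 rose with bacteria against PBS (0.70 and 0.61), while mmp9 (1.09) and csf3r (-0.24) did not pass without the block. With the block mmp9 passed (adjusted p = 0.00168, limma), while csf3r, which had the opposite sign, did not. The 4 of 8 macrophage markers summed to 297 to 440 FPKM with co-treatment and 283 to 356 with bacteria, against 331 to 624 with nitrite and 343 to 560 with PBS. That overlapping sum joins opposite signs. With bacteria against PBS csf1r (-3.79), mafb (-0.93) and marco (-0.83) fell, while irf8 (0.86) did not pass in the fit without the block. Mean csf1r was 2.37 FPKM with bacteria and 49.6 with PBS. B cell markers, 5 of 8, summed to 32.9 to 49.0 FPKM with co-treatment and 28.0 to 40.2 with bacteria, against 117 to 167 with nitrite and 117 to 208 with PBS. Progenitor markers, 6 of 9, summed to 73.4 to 112 with co-treatment and 66.3 to 86.8 with bacteria, against 220 to 330 with nitrite and 240 to 347 with PBS. epx, an eosinophil peroxidase gene and the 1 granule marker listed, had 52.9 to 156 FPKM with co-treatment and 102 to 175 with bacteria, against 4983 to 6661 with nitrite and 4714 to 6764 with PBS. Thrombocyte markers, 5 of 7 with f13a1 at 0, summed to 61.1 to 79.4 FPKM with co-treatment and 54.6 to 80.9 with bacteria, against 85.1 to 198 with nitrite and 85.7 to 170 with PBS. Among them mpl, itga2b and gp1bb fell with bacteria against PBS (-1.76, -1.36 and -1.56). By contrast fli1 had the opposite sign (0.39), which passed only with the block (adjusted p = 0.0440, limma). In co-treatment against nitrite fli1 rose by 0.50 (adjusted p = 0.0383, limma). T cell markers, 6 of 12, overlapped between all groups, at 9.05 to 14.8 FPKM over the 12 libraries. Of 7 erythroid markers 1 matched, gata1, at or below 0.55 FPKM.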

How the data were processed

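The authors deposited 1 table of FPKM values per transcript for 12 libraries. The submitters' processing notes name Trimmomatic 0.30, HISAT2 2.0.1 and HTSeq 0.6.1. Which genome build and annotation they used, and what computed the FPKM, is not given in the sources used here. Groups and replicate numbers come from sample titles. Transcripts were summed per trimmed symbol. The 12423 genes averaging 1 FPKM or more over all libraries were tested on log2(FPKM + 1), a scale that understates changes of low genes. One limma model (version 3.58.1, R 4.3.3, mean-variance trend) held all 4 groups, with Benjamini-Hochberg adjustment over all tested genes and a threshold of 0.05. The procedure was tested on simulated data. FPKM hold no counts, so absolute depth is unknown, and steps between low values gave only relative depth.

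The numbers were taken to pair the libraries because all 18 same-number pairs deviated together, and each of the 12 libraries had its highest correlation with one of its own number. Members and lists were chosen with earlier results of these data known. The rule for named genes takes the 3 members, up to 4 genes per pathway list with the smallest adjusted p for bacteria against PBS, and the 5 genes most like each member. Other list genes are named to complete a count and were chosen after their values were seen, as was LOC100692258. Alternatives were pseudocounts of 0.1 and 3, filtering at 5 FPKM or not at all, 2 scalings, the block and the highest transcript. Also run were the groups compared alone, no trend, each library left out in turn, and the block with median-ratio scaling. The block without PBS library 1, and number 1 left out of every group, were added after seeing the data. No sequences are shown, and 1 gene was left out of the pathway lists after its values were seen and is not reported here; the list counts exclude it.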

Additional observations from a re-analysis of the deposited data

How the results depend on the processing

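socs1 and socs3 kept their direction and their call in bacteria against PBS, co-treatment against PBS and co-treatment against nitrite under all 25 alternatives; over them socs1 ranged from 1.90 to 3.26 and socs3 from 1.61 to 2.94. For bacteria against PBS cish passed with the replicate block (-0.89) and, in alternatives chosen after seeing the data, without number 1 in every group (-1.12) and with the replicate block and without PBS library 1 (-1.13). Leaving out 1 library gave -1.35 to -0.57, and it passed without PBS replicate 1. The block without PBS library 1 also called cish in co-treatment against PBS (-0.63) and against nitrite (-0.61). The block changed no other call of the 3 members.

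Among results for nitrite and the interaction, none became called, and several turned in sign. With the block and without PBS library 1, nitrite against PBS gave -0.027 for cish and -0.18 for socs3, and the interaction of socs3 was 0.15. Leaving out 1 library, nitrite against PBS ran from -0.25 to 0.53 for cish, 0.13 to 0.74 for socs1 and -0.55 to 0.78 for socs3. Nitrite added to bacteria ran from -0.38 to 0.52 for socs1 and from -0.12 to 0.048 for socs3. The interaction ran from -0.040 to 0.74 for cish, -0.86 to 0.039 for socs1 and -0.81 to 0.52 for socs3.

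The number of genes called was 7295 for bacteria against PBS, 7436 for co-treatment against PBS and 8403 for co-treatment against nitrite with the block and without PBS library 1, against 4594, 4848 and 4206 in the fit reported. After median-ratio scaling they were 3821, 4135 and 3630, of which 54.8%, 53.4% and 55.4% were higher, against 29.0%, 29.1% and 31.2% as deposited; after quantile normalization they were 3401, 3667 and 3124, of which 47.9%, 47.7% and 52.7% were higher. For co-treatment against nitrite the block alone gave 6329. For co-treatment against bacteria the 1 gene became 5 with no filter, 4 with the block, 4 with the block and median-ratio scaling, and 12 with the block and without PBS library 1. The causes were not tested. With 3 libraries a group and no counts, the precision of single values is unknown, and intervals rest on the spread between libraries.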
